A study of Homo sapiens with 12 samples.

Results

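The 9 genes described here encode transcription factors of the integrated stress response, namely ATF3, ATF4, ATF5, DDIT3, CEBPB, CEBPG, CEBPD, JDP2 and NUPR1. They were chosen by name, with earlier results of these data known, and they are 9 of the 36601 genes in the table of normalized counts. All 9 averaged 10 or more normalized counts over the libraries and so were among the 15376 genes tested.

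The cells were KP4, an unmodified (wild-type) human pancreatic ductal carcinoma line grown in medium with serum. For 24 h they received vehicle (DMSO), metformin at 10 mM (Met), FK866 at 5 nM (FK), or the drugs together at those doses (Met+FK). Metformin blocks the first complex of mitochondrial electron transport, and FK866 blocks NAMPT, through which cells rebuild NAD from nicotinamide. Total RNA was depleted of ribosomal RNA and 12 libraries were sequenced, 3 per treatment. Each library held between 30667735 and 41052203 read pairs counted on genes, and a normalized count is that number after division by the library's size factor.

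In the integrated stress response, kinases that sense amino acid shortage, misfolded protein in the endoplasmic reticulum, viral RNA or heme deficiency phosphorylate the translation factor eIF2alpha. Protein synthesis then falls in general, while a few mRNAs with upstream reading frames, among them those of ATF4, ATF5 and DDIT3, are translated better. ATF4 binds DNA as a dimer with a C/EBP protein at composite elements and raises genes of amino acid supply, and DDIT3 (CHOP), ATF3 and others act further down. RNA sequencing measured only the mRNA of these factors, so a change in translation would not be seen.

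Short stretches of promoter are shown first, around matches to the letters of elements that factors of these families can bind. In the RefSeq promoter windows (GRCh38.p14, 250 bases before to 50 after each annotated start), 7 of the 9 genes had an entry, and CEBPD and NUPR1 did not. The core of the C/EBP-ATF response element (CARE), TGATGNAA searched on both strands, was found in a window of each of ATF3, JDP2 and CEBPG. Other windows of these genes lacked it, among them chr1:212614768-212615067 of ATF3. The core is in capitals here with 11 bases on each side, placed from the start of the window that holds it.
ATF3, chr1:212565205-212565234, plus strand, core at -191 to -184 from the start: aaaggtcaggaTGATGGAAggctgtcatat
JDP2, chr14:75427995-75428024, plus strand, core at -16 to -9: atagccggggcTGATGCAAcccgtcccgcc
CEBPG, chr19:33374060-33374089, plus strand, core at -42 to -35: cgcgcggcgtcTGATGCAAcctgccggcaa
An AP-1 site, TGANTCA, at which Fos, Jun and ATF family dimers can bind, is again in capitals. It was found in the overlapping windows of DDIT3, as the same site, and in a window of ATF5.
DDIT3, chr12:57520738-57520766, minus strand, site at -238 to -232: gcgcgcgcgcaTGACTCAcccacctcctc
ATF5, chr19:49928707-49928735, plus strand, site at -188 to -182: ggagagtgctgTGACTCAtgctggactct
The 7 genes had 16 windows, of which 3 held the CARE core and 3 the AP-1 site. The CARE core occurred in 3.62% and the AP-1 site in 7.71% of all 35116 windows. By gene, 4.46% of all genes with a window held the CARE core, beside 3 of these 7. The cyclic AMP response element TGACGTCA (1.85% of windows), the endoplasmic reticulum stress element (0.0769%) and the C/EBP palindrome TTGCGCAA (0.151%) were not found in the windows of the 7 genes. These matches describe letters within the windows and show no binding.

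Metformin raised most of the factors. Genes were called where limma-trend gave an adjusted p under 0.05 and the change exceeded 1.5-fold, and 7 of the 9 genes were called higher in Met than in DMSO, while 12.8% of all genes tested were. The risen genes were NUPR1, DDIT3, ATF3, JDP2, CEBPG, ATF4 and CEBPB. ATF5 was the 1 gene called lower, as were 10.2% of all genes. The median log2 fold change was 1.59 over the 9 genes and 0.012 over all genes tested. With libraries scaled to the same total, the median of all genes was 0.13, and the direction of no called gene of the 9 changed. Fold changes are on the scale log2(normalized count + 1), which understates the change of genes with low counts. The labels number the libraries as replicates and do not say that they came from separate cultures, so p-values measure the spread between these libraries, which may be technical. In bulk RNA, a change in the number of responding cells and a change in RNA per cell cannot be told apart.

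**Figure D1:**
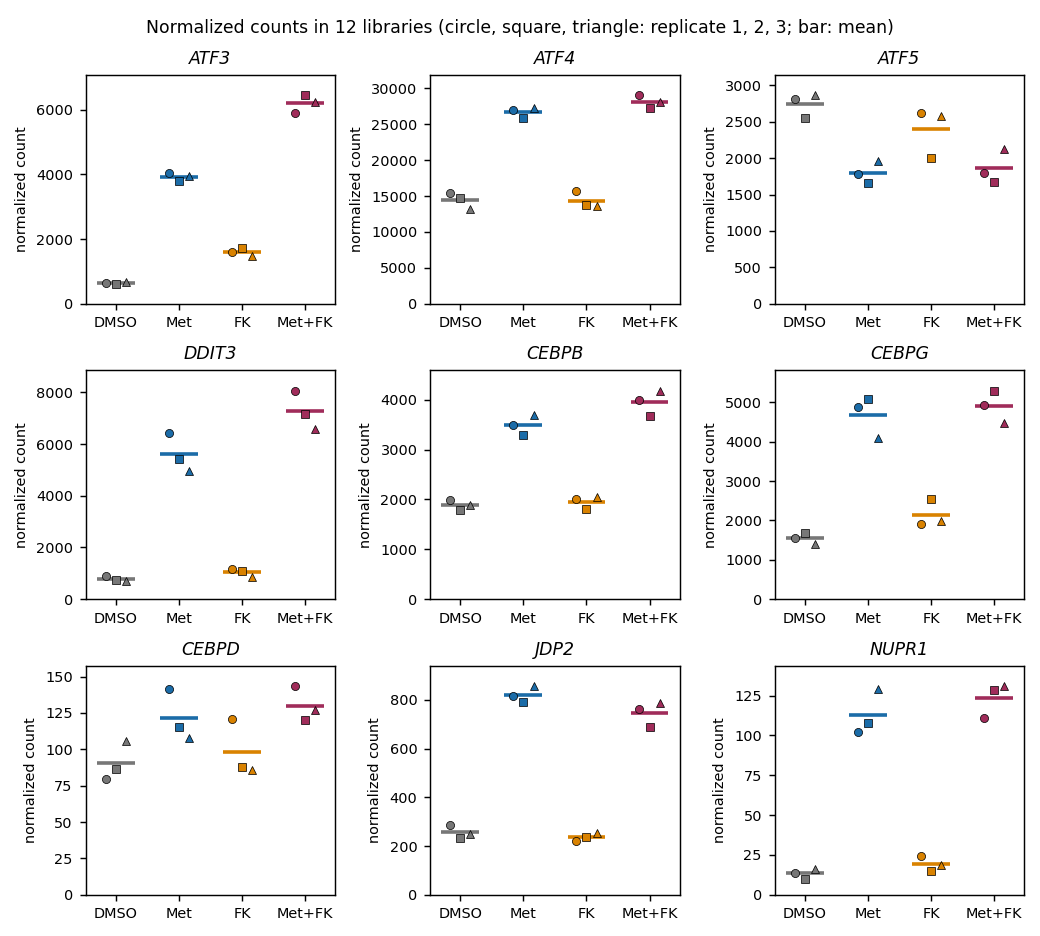
Normalized counts of the 9 genes (vertical axes, each from 0) in the DMSO, Met, FK and Met+FK libraries, with replicates 1, 2 and 3 as circle, square and triangle and the group mean as a bar. For 7 genes all Met and all Met+FK libraries lie above all DMSO and all FK libraries, and for ATF3 all 4 groups are separate. The share of all genes with either pattern was not computed.

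ATF3 is a bZIP factor that responds early to many stresses and can repress or activate its targets. Its gene (chr1:212565334-212620777, plus strand, hg38) had 625, 609.9 and 671 normalized counts in the DMSO libraries. It had 4030.2, 3792 and 3939.5 in the Met libraries, all of which were above every DMSO library. With FK it had 1611, 1719 and 1479.6, also above every DMSO library and below every Met library. With Met+FK it had 5911, 6441 and 6230.3, above all other libraries. ATF3 was the 1 gene of the 9 whose 4 groups were all separate, in the order DMSO, FK, Met and Met+FK. The share of all genes with 4 separate groups was not computed. The group means were 635 ± 31.8, 1603 ± 119.8, 3921 ± 120.3 and 6194 ± 267 (SD, n = 3). Its log2 fold change was 2.62 for Met against DMSO (SE 0.076), which limma-trend gave an adjusted p of 2.04e-11.

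DDIT3 encodes CHOP, a C/EBP-related factor linked to cell death under lasting stress. Its gene (chr12:57516588-57521737, minus strand) had 902, 759 and 713 normalized counts in DMSO replicates 1 to 3. In Met these were 6439, 5411 and 4955, all far above the DMSO libraries. The difference was 2.82 on the log2 scale (SE 0.13, limma-trend adjusted p = 1.58e-09). In FK the values were 1174, 1101 and 855, which overlapped DMSO through replicate 3. In Met+FK they were 8054, 7166 and 6600.0, all above every Met library. DDIT3 shares 982 bases with MARS and 1028 with MBD6, both on the opposite strand. The methods list no strand setting for the counting, so reads of these genes may not be fully separate. MBD6 had means of 1760 in DMSO and 2079 in Met, a log2 fold change of 0.24 (limma-trend adjusted p = 0.115). The mean of MARS was 14296 in DMSO and 22216 in Met, a log2 fold change of 0.64 against 2.82 for DDIT3.

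NUPR1 is a small stress-inducible chromatin-associated protein, and its gene (chr16:28532708-28539174, minus strand) had the lowest counts of the 9. The DMSO libraries held 13.8, 9.85 and 16.4 normalized counts. The Met libraries held 102, 108 and 129, and the Met+FK libraries 111, 128 and 131. Both groups stood clear of DMSO, and they overlapped each other. The log2 fold change of Met against DMSO was 3.01 (SE 0.22, limma-trend adjusted p = 1.01e-07), the highest estimate among the 9 genes at this pseudocount. With a pseudocount of 10 it was 2.40, below DDIT3 at 2.81 and ATF3 at 2.61. Its SE was also the largest. In FK the values were 24.5, 15 and 18.4, a difference of 0.50 that overlapped DMSO (limma-trend adjusted p = 0.0982).

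JDP2 encodes a bZIP repressor that pairs with Jun and ATF proteins. Its gene (chr14:75427716-75474111, plus strand) rose from 287, 232 and 251 normalized counts in DMSO to 817, 789.9 and 855 in Met. The log2 fold change was 1.68 (SE 0.10, limma-trend adjusted p = 1.99e-08). FK gave 219, 237 and 253, a group that overlapped DMSO. With Met+FK the values were 762, 688 and 785, all above DMSO and all below the lowest Met library. JDP2 was the 1 gene of the 9 that was lower in every Met+FK library than in every Met library, although the difference of -0.14 did not pass the test (limma-trend adjusted p = 0.846).

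Of the C/EBP family, CEBPG and CEBPB rose with metformin and CEBPD stayed under the fold threshold. CEBPG (chr19:33373685-33382686, plus strand) lacks a transactivation domain of its own and forms dimers with ATF4. It had 1557, 1679.9 and 1409 normalized counts in DMSO and 4885, 5072 and 4086 in Met, a log2 fold change of 1.59 (SE 0.12). In FK it had 1919, 2545 and 1982, all above every DMSO library. In Met+FK it had 4941, 5289.6 and 4487, which overlapped Met. CEBPG was therefore, beside ATF3, the other gene that was separate between FK and DMSO, where 17.2% of all genes were higher without overlap.

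CEBPB (chr20:50190830-50192668, plus strand), a C/EBP factor of metabolic and inflammatory genes, had 1987, 1791 and 1881 normalized counts in DMSO and 3481, 3284 and 3686 in Met. Its rise of 0.88 on the log2 scale (SE 0.080) was past the threshold, with a limma-trend adjusted p of 7.29e-07. FK libraries held 2005, 1801 and 2054 and overlapped DMSO. Met+FK libraries held 3991, 3674 and 4175 and overlapped Met through replicate 2. CEBPD (chr8:47736913-47738164, minus strand), a related factor of acute-phase responses, was low, with 79.6, 86.7 and 105 in DMSO and 141, 115 and 108 in Met. These groups did not overlap, but the gap between the highest DMSO and the lowest Met library was small, and the log2 fold change of 0.42 (limma-trend adjusted p = 0.0487) was under the 1.5-fold threshold. It was 0.60 (adjusted p = 0.00499) with the GC and length trend removed, which is past it, and 0.30 (adjusted p = 0.193) without Met replicate 1. With FK it had 121, 87.6 and 86.1, and with Met+FK 143, 120.3 and 127.

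ATF4, the central factor of the response, had the highest level of the 9 in every treatment when counts were divided by transcript length (Ensembl canonical transcript). Its mean level was 10197 ± 769 normalized counts per kb in DMSO and 18798 ± 493 in Met. On the same scale DDIT3 went from 876 ± 109 in DMSO to 6204 ± 842 in Met, and ATF5 from 1366 ± 83.9 to 895 ± 76.2 (SD, n = 3). DDIT3 was thus below ATF5 in DMSO and above it in Met. The gene of ATF4 (chr22:39519695-39522685, plus strand) had 15378, 14771 and 13259 normalized counts in DMSO and 26928, 25882 and 27211 in Met. With FK it had 15637, 13759 and 13611, within the DMSO range or just above it. With Met+FK it had 29032, 27251 and 28039, each above the highest Met library. The log2 fold change of Met against DMSO was 0.88 (SE 0.072, limma-trend adjusted p = 2.61e-07), and that of FK was -0.01 (adjusted p = 0.901).

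ATF5, a bZIP factor that takes part in the mitochondrial stress response, moved the other way. Its gene (chr19:49928702-49933935, plus strand) had 2815, 2549.9 and 2862 normalized counts in DMSO and 1779.9, 1654 and 1958 in Met. All Met libraries were below all DMSO libraries. The log2 fold change was -0.61 (SE 0.11, limma-trend adjusted p = 0.000441), just past 1.5-fold. It was -0.45 with the GC and length trend removed, -0.58 in edgeR and -0.49 with libraries scaled to the same total, all under 1.5-fold, as it was without DMSO replicate 3 (-0.58) or Met replicate 2 (-0.55). With Met+FK the libraries held 1794, 1679 and 2120.0, again below DMSO. That fold change of -0.56 (adjusted p = 0.000774) was just short of 1.5-fold, and past it without DMSO replicate 2 (-0.61) or Met+FK replicate 3 (-0.66). FK libraries held 2615, 2001 and 2577 and overlapped DMSO. ATF5 shares 1062 bases with NUP62 on the opposite strand, and NUP62 fell by 0.89 on the log2 scale with Met (limma-trend adjusted p = 2.28e-06), from a mean of 4252 to 2291. The part of NUP62 reads in the ATF5 values was not tested.

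Without the fold threshold, all 9 genes passed adjusted p under 0.05 between Met and DMSO, 8 higher and 1 lower, as were 24.9% and 25.9% of all genes. CEBPD, at an adjusted p of 0.0487, was the least secure of these, with a range of 0.0295 to 0.193 over the 6 fits that left out a DMSO or Met library, of which 2 kept it. The Met and DMSO groups did not overlap in any of the 9 genes. Over all genes tested, 27.5% were higher and 29.4% lower without overlap. The genes fell into steps of response to metformin. NUPR1, DDIT3 and ATF3 rose most and did not differ from each other beyond their spread, in that the ranges of their log ratios overlapped. ATF3 rose more than JDP2 by 0.94 (SE 0.12) on the log2 scale. JDP2 and CEBPG overlapped, and CEBPG rose more than ATF4 by 0.71 (SE 0.16). ATF4 and CEBPB had near-equal changes, and CEBPD overlapped CEBPB. ATF5 stood apart from CEBPD by 1.03 (SE 0.19). Among all 15376 genes, NUPR1, DDIT3 and ATF3 ranked 13, 21 and 28 by log2 fold change.

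**Figure D2:**
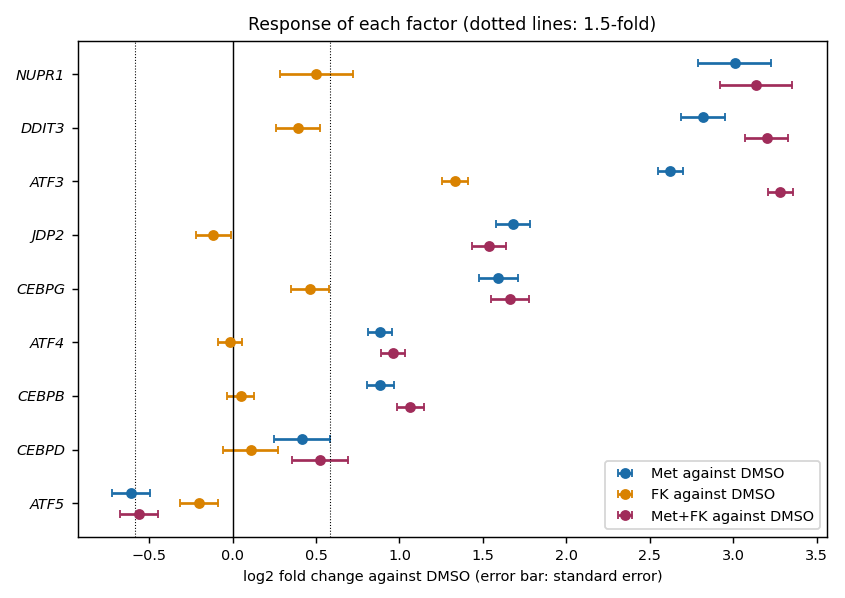
Log2 fold change against DMSO (horizontal axis) of each of the 9 genes (vertical axis, ordered by the change with Met) for Met, FK and Met+FK, with standard errors as bars and dotted lines at 1.5-fold. The Met points run from -0.61 (ATF5) to 3.01 (NUPR1), while among the FK points only that of ATF3, at 1.33, lies beyond the dotted lines.

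FK866 alone changed few of the factors. ATF3 was the 1 gene of the 9 called higher in FK than in DMSO, as were 2.73% of all genes tested, and 0 were called lower in limma-trend, edgeR or DESeq2 or at an unadjusted p under 0.05 (0.754% of all genes were called lower). All FK libraries had a lower slope of log2 level on GC content than all DMSO libraries, from -0.25 to 0.0027 against 0.043 to 0.20 per 10 percentage points. With the GC and length trend removed, 1.3% of all genes were called in either direction in place of 3.49%, and ATF3 was at 1.43 (limma-trend adjusted p = 4.61e-10). Its log2 fold change was 1.33 (SE 0.076), with a limma-trend adjusted p of 3.91e-07. This was above that of the next gene, NUPR1, by 0.83 (SE 0.21), and the ratios of the libraries did not overlap. Below ATF3, neighbours in the order of response to FK overlapped throughout. CEBPG (0.46, limma-trend adjusted p = 0.0229) and DDIT3 (0.39, adjusted p = 0.0458) passed the p threshold and not the fold threshold, so 3 genes were higher by the p-value alone, as were 11.3% of all genes. Correction for GC content and transcript length brought CEBPG down to 0.21 (adjusted p = 0.0316) and CEBPB up to 0.27 (adjusted p = 0.00342). The DDIT3 difference had an adjusted p of 0.0707 when no filter was set on low counts and of 0.0876 in a fit of the FK and DMSO libraries alone, where that of CEBPG was 0.0651.

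Same-numbered FK and DMSO libraries deviated from their group means together, so they were also compared as pairs. The pairing is read from the values alone. The FK over DMSO ratio of ATF3 was 2.58, 2.82 and 2.20 in replicates 1 to 3. That of DDIT3 was 1.30, 1.45 and 1.20, and that of CEBPG 1.23, 1.52 and 1.41. NUPR1 and CEBPB were higher in each pair too, so 5 of the 9 genes were, and 33.6% of all genes. With the replicate number as a block, ATF5 passed the p threshold also (-0.20, limma-trend adjusted p = 0.0257), without reaching 1.5-fold, in a fit where 21.3% of all genes were lower and 23.3% higher at that threshold. With the GC and length trend removed as well, its value was 0.00 (adjusted p = 0.969). In that last fit ATF4 (0.15, adjusted p = 0.0211) and CEBPB (0.27, adjusted p = 0.000601) passed the p threshold and stayed below 1.5-fold, and 7.66% of all genes were higher by that rule.

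**Figure D3:**
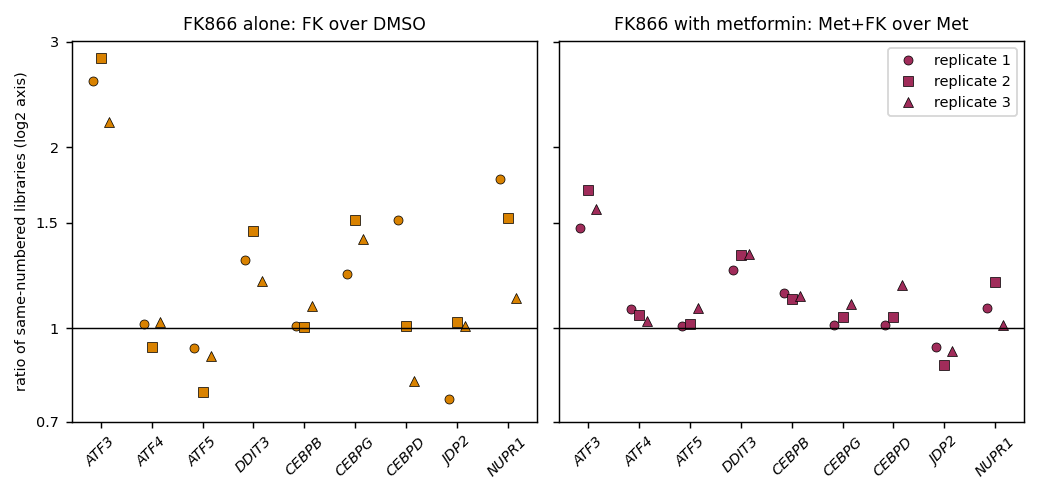
Ratio of same-numbered libraries (vertical axes, log2 scale) for each of the 9 genes, FK over DMSO on the left and Met+FK over Met on the right, with replicates 1, 2 and 3 as circle, square and triangle. ATF3 is highest on both sides, from 2.20 to 2.82 on the left and from 1.47 to 1.70 on the right, and JDP2 lies below 1 in all 3 ratios on the right.

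With both drugs, the same 7 genes were called higher than in DMSO as with metformin alone, against 13.7% of all genes tested. In limma-trend, edgeR and DESeq2, 0 were called lower (11.3% of all genes), and at an unadjusted p under 0.05 only ATF5 was. ATF3 had the highest log2 fold change, 3.28 (SE 0.076, limma-trend adjusted p = 7.45e-13), followed by DDIT3 at 3.20 and NUPR1 at 3.14, which did not differ from ATF3 or from each other beyond their spread. NUPR1 rose more than CEBPG (1.66) by 1.47 (SE 0.33). CEBPG and JDP2 (1.54) overlapped. JDP2 rose more than CEBPB (1.06) by 0.47 (SE 0.066), and CEBPB and ATF4 (0.96) overlapped. CEBPD, at 0.52 (limma-trend adjusted p = 0.0162), stayed under the fold threshold, but passed it with the GC and length trend removed (0.64), with libraries scaled to the same total (0.61) and without DMSO replicate 3 (0.64). Its adjusted p rose to 0.0712 without DMSO replicate 1 and to 0.0657 without Met+FK replicate 1.

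Set against metformin alone, the combination raised ATF3 further. Its difference between Met+FK and Met was 0.66 on the log2 scale (SE 0.076, limma-trend adjusted p = 0.00272), or 1.58-fold, and it was the 1 gene of the 9 that was called. This was above the difference of the next gene, DDIT3, by 0.28 (SE 0.15), but the ratios of the libraries overlapped. Of all genes tested, 0.052% were called higher and 0.0065% lower. The Met+FK over Met ratio of ATF3 was 1.47, 1.70 and 1.58 in same-numbered libraries. ATF3, DDIT3 and ATF4 were higher in every Met+FK library than in every Met library, as were 7.88% of all genes, and JDP2 was lower in every one, as were 5.56%. DDIT3 was higher by 0.38 (SE 0.13), with an adjusted p of 0.515 without pairing. Its ratio in the pairs was 1.25, 1.32 and 1.33. With the replicate block, a term shared by all 12 libraries, limma-trend gave it an adjusted p of 0.00854. In that fit, 0.468% of all genes were higher at that threshold. CEBPB was higher by 0.18 and had ratios of 1.15, 1.12 and 1.13, with an adjusted p of 0.714 without and 0.172 with the block. The remaining differences lay between -0.14 and 0.13.

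The effect of metformin was also measured in FK866-treated cells. The same 7 genes were called higher in Met+FK than in FK (9.27% of all genes), and in Met than in FK (8.08%). ATF3 rose by 1.95 on the log2 scale from FK to Met+FK and by 2.62 from DMSO to Met. For DDIT3 the corresponding values were 2.81 and 2.82, for ATF4 0.97 and 0.88, and for JDP2 1.65 and 1.68. For CEBPG they were 1.20 and 1.59. ATF5 was lower in Met than in FK by an estimate of -0.41 (limma-trend adjusted p = 0.0106), under 1.5-fold.

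Additivity was read on both the log and the count scale, since they ask different questions. On the log2 scale, the interaction is the FK866 effect in metformin-treated cells less the FK866 effect in vehicle-treated cells, and 0 means that the folds multiply. ATF3 had an interaction of -0.67 (SE 0.11, limma-trend adjusted p = 0.0407), in that FK866 raised it by 1.33 without and by 0.66 with metformin. It was the 1 gene of the 9 that passed, and 0.0585% of all genes tested did. That share was 0.6% with the GC and length trend removed and 4.52% in DESeq2, where ATF3 passed also. This call was close to the threshold, with an adjusted p from 0.0366 to 0.181 when each of the 12 libraries was left out in turn, and it was kept only without FK replicate 1. It was also lost with no filter on low counts (adjusted p = 0.0609). The replicate block gave 0.00291. CEBPG had an interaction of -0.39 (SE 0.16, adjusted p = 0.131), which the block brought to 0.0112, in a fit where 32.0% of all genes passed. With the GC and length trend removed as well, it was -0.09 (adjusted p = 0.397). The other 7 interactions lay between -0.37 (NUPR1, SE 0.31) and 0.25 (ATF5, SE 0.16).

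On the count scale, ATF3 exceeded the sum of both rises. The DMSO mean plus the rise with Met (3285) and the rise with FK (968) came to 4888 normalized counts, and 6194 were observed, an excess of 1306 (SE 184). The product of both folds would have given 9891. The Met+FK level of ATF3 was therefore 1.27 times the sum and 0.626 times the product, between both references. For DDIT3 the sum was 5854, the product 7387 and the observed mean 7273, so that its excess over the sum was 1419 (SE 619.9, from the 4 group variances) and its ratio to the product 0.985. With this SE, the excess of DDIT3 lay beyond 2 SE of 0 with all libraries, and not without Met replicate 2 or without Met+FK replicate 1. For the other 7 genes it was within 2 SE, from -376 (SE 437) for CEBPG to 1567 (SE 1118) for ATF4. The result depended on whether same-numbered libraries were read as pairs (Met with Met+FK, and DMSO with FK), a choice made after the data were seen. The SE then fell to 72.5 for DDIT3 and to 64.6 for CEBPB, and was 238 for ATF3. In the pairs, 6 genes lay beyond 2 SE, namely ATF3, DDIT3, CEBPB (excess 396), ATF4 (1567, SE 575) and ATF5 (411, SE 115) above the sum and CEBPG (SE 177) below it. JDP2, CEBPD and NUPR1 lay within 2 SE, JDP2 at its edge, from -111 to 0.034. With 3 pairs these intervals are a description and no test. The share of all genes beyond 2 SE was not computed with either SE, so these counts are no result about the factors.

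**Figure D4:**
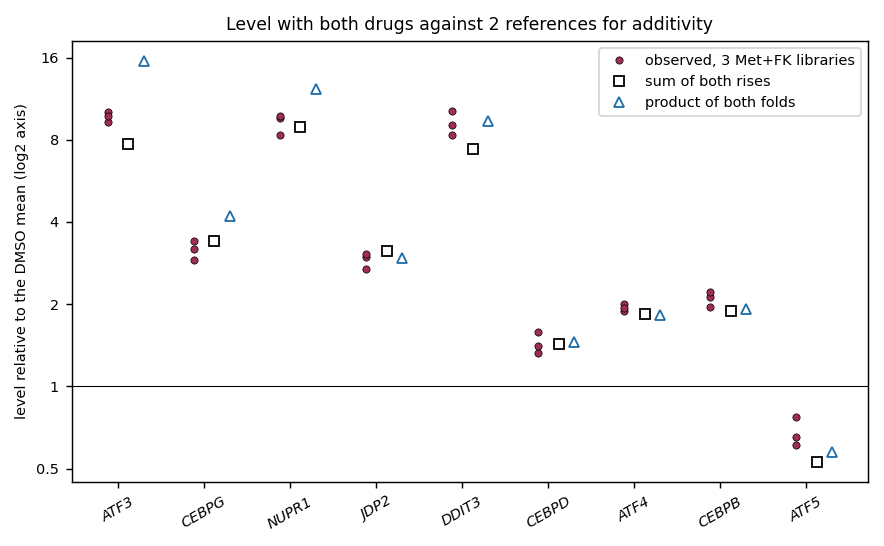
Level with both drugs relative to the DMSO mean (vertical axis, log2 scale) for each of the 9 genes, with the 3 Met+FK libraries as filled circles, the sum of both single-drug rises as an open square and the product of both single-drug folds as an open triangle. The ATF3 libraries lie above the square and below the triangle, and the DDIT3 libraries lie above the square and around the triangle.

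For each factor, the non-member genes with at least 100 normalized counts on average and the most similar 3 fold changes against DMSO (Met, FK and Met+FK) were found by the root mean square difference on the log2 scale. For ATF3 the nearest were YPEL2 at 0.32 and LRATD2 at 0.39, so that no gene matched it closely. DDIT3 was nearest to ADM2 (0.11), which is on the target list below it in the pathway, and RAB39B (0.16). NUPR1 was nearest to LRATD2 (0.14) and ADM2 (0.18), and JDP2 to WNT2B (0.082) and CBS (0.12), another listed target. For CEBPG these were JMY and ZNF391, for ATF4 KLHL29 and RPS6KA2, for CEBPB ABCG1 and ZNF333, for CEBPD AK5 and RNF14, and for ATF5 PWP2, all at distances up to 0.065. The 3 comparisons share the DMSO libraries, and nothing on shared control follows.

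Known targets of ATF4 and CHOP rose with the factors. Of 47 listed, 46 were tested, and 38 were called higher with Met and 0 lower, beside 12.8% and 10.2% of all genes. At an unadjusted p under 0.05, 1 was lower, and edgeR and DESeq2 called 0 lower as well. The median log2 fold change of this list was 1.09, against 0.012 over all genes. ADM2, a secreted peptide of the calcitonin family, rose from 132 ± 16.1 to 915 ± 48.7 normalized counts (SD, n = 3), a log2 fold change of 2.79. TRIB3, a pseudokinase that feeds back on ATF4 and AKT, rose by 2.63, and HMOX1, the inducible heme oxygenase, by 2.41 with a wide spread (SE 0.25). The glutathione-degrading enzyme CHAC1 rose by 2.35, the mTORC1 regulator SESN2 by 2.24 and asparagine synthetase, ASNS, by 1.99. At the other end, SHMT2, the mitochondrial serine hydroxymethyltransferase, had 8387 ± 338 in DMSO and 8000.1 ± 701 in Met, and ALDH18A1, an enzyme of proline synthesis, had a difference of -0.33 (limma-trend adjusted p = 0.00274), under 1.5-fold. The list was written from general knowledge, with earlier results of these data known, and holds genes known to be driven by other factors also.

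With FK866 alone, 9 of the 46 targets were called higher and 0 lower, beside 2.73% and 0.754% of all genes. Their median was 0.18, against -0.016 over all genes. At an unadjusted p under 0.05, 4 were lower, and neither edgeR nor DESeq2 called a lower target. GDF15, a stress-induced secreted factor, changed most, by 1.5 (SE 0.091, limma-trend adjusted p = 4.01e-07), followed by SLC7A11, the cystine transporter, at 1.04. GDF15 was also the 1 target called higher with the combination than with metformin alone, as were 0.052% of all genes. It rose by 0.91 (limma-trend adjusted p = 0.000756), with means of 1752 and 3293. Its values are given because it was the single call, and it was singled out after they were seen. With both drugs against DMSO, 38 targets were called higher, beside 13.7% of all genes, with a median of 1.18. The interaction called 0 of the 46 in limma-trend and in edgeR. In DESeq2 it called 6, 1 higher and 5 lower, beside 4.52% of all genes. At an unadjusted p under 0.05, 7 were higher and 14 lower. Of all 15376 genes tested, 4695 passed that threshold in either direction, and the difference from this share was not tested.

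Among 11 targets whose RefSeq windows held the CARE core, of 37 with a window, 10 were tested, and their log2 fold changes with Met ran from 0.31 (SLC1A5) to 2.35 (CHAC1). Of tested genes with a window under the same symbol, 309 held the core and 19.1% of them were called higher with Met. Of the 10520 without it, 11.97% were. Genes whose windows carry a newer symbol were left out of these shares. Among them are the targets AARS, GARS, MARS and NARS, which hold the core and were called higher with Met. ATF3, JDP2 and CEBPG, which hold it, rose by 2.62, 1.68 and 1.59, and DDIT3, without it in the window, by 2.82. These shares are a description and were not tested.

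The upstream arm of the response was described in the same way. Of 26 genes for eIF2alpha kinases, phosphatases and sensors of the unfolded protein response, 6 were called higher with Met and 0 lower (12.8% and 10.2% of all genes), and the median was 0.13. The difference from the targets was not tested. At an unadjusted p under 0.05, 9 were lower, while edgeR and DESeq2 called 0 lower. The 6 genes called higher were ERN1 (1.63), which encodes the sensor IRE1alpha, HSPA5 (1.33), the chaperone BiP, PPP1R15A (1.18), the GADD34 subunit that directs eIF2alpha dephosphorylation, EIF2S2 (0.86), ATF6 (0.75) and IMPACT (0.70). The smallest values with both drugs were those of EIF2B1 (-0.48) and PPP1CA (-0.53), under 1.5-fold. With FK866 alone, DNAJC3 (0.59), an inhibitor of eIF2alpha kinases, was the 1 gene of the list called higher, as were 2.73% of all genes. Met+FK against Met had 0 calls in limma-trend, edgeR or DESeq2, and 3 genes were higher and 0 lower at an unadjusted p under 0.05. PPP1R15A had means of 3067 ± 374 and 4341 ± 185 there (SD, n = 3), with an adjusted p of 0.0686. PPP1R15A is also on the target list, and ATF6 on that of other bZIP factors.

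Of 45 other bZIP factors listed, 39 were tested, and 6 were called higher and 2 lower with Met. These counts were near or below what the 12.8% and 10.2% of all genes called would give, so they were no result about the list. NFIL3, a repressor of the bZIP family, rose from 392 ± 7.06 to 1383 ± 133 normalized counts (1.81), and HLF, from a low level of 7.04 ± 0.978, rose by 1.52. FOS fell by 1.37 on the log2 scale, from 167 ± 18.5 to 66.3 ± 23.1, and FOSB fell by 1.02. FOSB, in contrast, rose with FK (0.93, limma-trend adjusted p = 0.00351), as did NFE2L2 (0.61, adjusted p = 0.0313). The median over this list with Met was 0.23, beside 1.59 over the 9 factors, and the difference between the lists was not tested. With both drugs, 11 were called higher and 2 lower, beside 13.7% and 11.3% of all genes. The 2 lower were FOS and JUNB (-0.69).

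**Figure D5:**
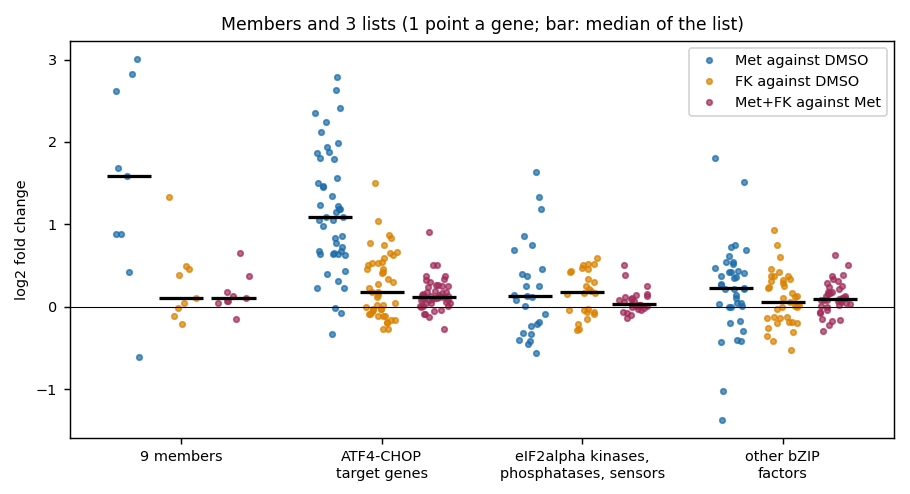
Log2 fold changes (vertical axis) of Met against DMSO, FK against DMSO and Met+FK against Met for the 9 factors and for the tested genes of 3 lists, with 1 point a gene and the median of each list as a bar. With Met the medians are 1.59 for the 9 factors, 1.09 for the targets, 0.13 for the kinases, phosphatases and sensors and 0.23 for the other bZIP factors.

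The label of the cells was checked against marker genes. Of 9 ductal epithelial markers, 5 had a mean of at least 100 normalized counts, among them KRT18, KRT8 and SOX9, while EPCAM was below 12 in every group mean and CFTR was at 0. The summed ductal level was between 25301 and 26242 in DMSO and between 16465 and 19625 in Met, and most of that difference lay in KRT18 (means of 18307 and 10421), while SOX9 had means of 3781 and 4444. The 6 fibroblast markers, of which DCN was at 0, summed to 169 to 256 in DMSO, 267 to 346 in FK, 86.0 to 119.7 in Met and 94.1 to 131 in Met+FK, so that DMSO and FK did not overlap with each other or with the groups given metformin. Acinar and endocrine markers summed to at most 1.89 in any library. CD3E and LYZ were near 0, while PTPRC (means of 134 to 244) and CD68 were detected. The part of these differences in the values of the 9 factors was not tested.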

How the data were processed

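RNA from 12 KP4 libraries was analysed, 3 per treatment. According to the methods and the submitters' processing notes, the authors used cutadapt for trimming, STAR for alignment to hg38, featureCounts for read pairs per gene and DESeq2 for normalization. The annotation is not given in the sources used here. The deposited values are a signal, namely gene counts divided by 1 size factor per library (0.867 to 1.21). Read pairs were recovered from the smallest step, and 100% of values came out whole within 0.01. Starts of the table were counted from 0, and 1 was added. Replicates were distinct libraries (chi-square of their counts, per degree of freedom, 5.75 or more).

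Limma-trend (limma 3.58.1, R 4.3.3) was run on log2(normalized count + 1) with all 12 libraries and 1 mean per treatment, over the 15376 genes that averaged 10 or more, with Benjamini-Hochberg adjustment over all of them. Calls needed an adjusted p under 0.05 and a change beyond 1.5-fold (no fold threshold for the interaction). The script was tested on simulated data. Steps of response were read from the log ratios of all libraries of one treatment to all of the other, and SEs of differences between genes from the libraries' own log2 differences. The alternatives were pseudocounts of 0.1 and 10, other filters, same-total and TMM scaling, only the libraries compared, the replicate block, removal of a loess trend (span 0.3) on GC content and length, omission of each library, calls by adjusted p only, and edgeR 4.0.16 and DESeq2 1.42.0 on recovered read pairs. For DMSO and FK, deviations of same-numbered libraries correlated at 0.25, 0.42 and 0.22 across genes, and for Met and Met+FK at 0.17, 0.20 and 0.23. All were above 0.1, so a replicate block was also fitted, from the values alone. An SE of the excess over additivity from the same pairs was added after the data were seen. The block was a replicate effect shared by all 12 libraries, so it tied all treatments and not these pairs only. In replicates 1 to 3 the correlation was 0.013, 0.33 and 0.25 between DMSO and Met, and 0.046, 0.24 and 0.14 between FK and Met+FK. Between Met and FK it was 0.023, 0.40 and 0.30. The SE of the excess paired only DMSO with FK and Met with Met+FK, and these correlations do not single out those pairs.

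The 9 genes, the lists and the tests were chosen with earlier results of these data known. Named beside them were ASNS, CHAC1, TRIB3 and SESN2, in each list the 3 genes with the largest and the 2 with the smallest log2 fold change of Met+FK against DMSO, and for each factor the 2 most similar genes. Some of the genes this rule or the marker lists hold are not reported here. Other genes named as the calls of a list were chosen after their values were seen. The lists were the targets of ATF4 and CHOP, eIF2alpha kinases with phosphatases and sensors, other bZIP factors, and markers of cell types.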

Additional observations from a re-analysis of the deposited data

Results flagged for a closer look

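The estimated effect of FK866 on ATF3 differed with and without metformin, by a call close to the threshold. It was 1.33 on the log2 scale from DMSO to FK and 0.66 from Met to Met+FK, and the interaction of -0.67 had an adjusted p of 0.0407 in limma-trend. That adjusted p ran from 0.0366 to 0.181 with each of the 12 libraries left out, and stayed under 0.05 only without FK replicate 1. It was 0.0609 with no filter on low counts and 0.00291 with the replicate block. FK libraries held 2.20 to 2.82 times the ATF3 of the same-numbered DMSO libraries, and Met+FK libraries 1.47 to 1.70 times that of the Met libraries. In normalized counts, the rise with FK866 was 968 without metformin. The excess of the combination over the sum of both rises was 1306 (SE 184, or 238 with same-numbered libraries read as pairs).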

How the results depend on the processing

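The counts of the 9 genes called for Met against DMSO, Met+FK against DMSO, Met+FK against Met, Met+FK against FK and Met against FK stayed within 1.5 times of their main counts under all alternatives run. For FK against DMSO the adjusted p-value alone gave 3 genes in place of 1. For the interaction, 1 gene with the main settings became 0 without a filter on low counts, and 0 to 1 when each library was left out, since ATF3 was kept only without FK replicate 1. With the replicate number as a block over all 12 libraries, chosen from the values alone, the interaction called 2 genes, ATF3 and CEBPG. In that fit 32.0% of all genes tested passed, so this count is no result about the factors. The block changed no other count of calls by over 1.5 times. The number of genes in excess of additivity by over 2 SE was 1 to 3 when libraries were left out singly, and was 1 without Met replicate 2 or Met+FK replicate 1. With same-numbered libraries read as pairs, a setting chosen after the data were seen, it was 6.

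Values near 0 that were not called changed sign under some settings, and the cause was not tested. For FK against DMSO, ATF4 was 0.15 with the GC and length trend removed, with or without the block, 0.010 in edgeR and 0.0094 with libraries scaled to the same total, and -0.078 to 0.032 with libraries left out. ATF5 was 0.0037 with the GC and length trend removed, also with the block, and CEBPD ranged from -0.050 to 0.22 with libraries left out. Interactions with the GC and length trend removed were -0.080 for ATF4 and -0.16 for CEBPB, also with the block, and that of CEBPD was 0.000211 with a pseudocount of 10. With libraries left out, interactions ranged from -0.11 to 0.16 for CEBPD, from -0.15 to 0.092 for DDIT3 and from -0.11 to 0.045 for JDP2, and differences of Met+FK against Met from -0.047 to 0.12 for ATF5 and from -0.024 to 0.13 for CEBPG.

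With 3 libraries a group, low genes such as NUPR1 and CEBPD had SEs up to 0.31, so small differences could not be detected in them. The calls of ATF5 and CEBPD, near 1.5-fold, crossed that threshold under the settings given beside them.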
